A study of Gallus gallus with 72 samples.

Results

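CBLN1, SHANK2 and LRRN1 code for proteins of synapses and of the neural cell surface, and ST8SIA2 codes for an enzyme that modifies a neural surface protein. These 4 genes are described here in chicken breast muscle. They were chosen by name, as 4 of the 12046 genes in the count table, because earlier results of the same libraries showed a difference between the purebreds: CBLN1, SHANK2 and LRRN1 at embryonic day 17, and ST8SIA2 at day 21 after hatch. Uneven levels inside the crossbred groups were also known when the genes were chosen. Those differences and that unevenness are therefore given as descriptions, with no test. RNA sequencing covered 72 libraries of male broilers: crossbred birds, Cornish purebreds and White Plymouth Rock purebreds, the 2 purebreds being the parents of the cross. Each breed was sampled at embryonic day 17 (E17) and at 1, 21 and 42 days after hatch (D1, D21 and D42). Each of these 12 breed and stage groups has 6 libraries. No treatment or engineered allele is named, and the labels do not say which breed was the sire. The labels do not say that the libraries of a group are separate birds, so a p-value reflects the variation among these samples alone, and that variation may be technical.

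CBLN1, cerebellin 1, is a secreted protein that bridges the presynaptic and postsynaptic membranes and is best known for holding cerebellar synapses together. SHANK2 is a scaffold protein of the postsynaptic density that links receptors to the actin skeleton. LRRN1 is a transmembrane protein with leucine-rich repeats that sits on the surface of neural cells and takes part in boundary formation in the embryonic chick brain. ST8SIA2 is a sialyltransferase that builds polysialic acid, mainly on the neural cell adhesion molecule NCAM1, and with ST8SIA4 accounts for this modification in the developing nervous system. In muscle, polysialic acid on NCAM1 is known from embryonic and regenerating fibres.

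Levels are CPM, counts scaled to the library total after TMM scaling over all 72 libraries, and changes are log2 fold changes with their standard error (SE) from the quasi-likelihood test of edgeR, adjusted by Benjamini-Hochberg over all genes tested. A change was called when its adjusted p was under 0.05. Total counts ran from 16673085 in crossbred D1 library 1 to 75670549, with the second lowest at 47478167. Crossbred D42 library 3 and Cornish D42 library 3 correlated least with the other libraries of their groups (mean Pearson r of 0.9508 and 0.9556, against up to 0.9908 elsewhere). The source name speaks of myofibroblasts, while the extraction used frozen tissue. The 13 fast skeletal muscle markers together reached 26430 to 154470 CPM in every library, so muscle RNA was present throughout. The neuron markers were mixed. TUBB3 was at 22.3 to 43.4 CPM over all E17 libraries, with medians of 10.8 to 11.3 CPM at D21, and NEFL had medians of 1.81 to 3.11 CPM at E17. STMN2 had medians of 0.204 to 0.237 CPM at E17 and 0.925 to 1.28 CPM at D21. SNAP25 stayed under 1 CPM at E17 and was at 0 in 4 of 6 libraries of each breed at D21, and NEFM had a median under 1 CPM in each breed at both stages. In bulk tissue, fewer cells of a type and less RNA per cell cannot be told apart.

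CBLN1 had the largest spread between libraries of the 4 genes at E17. It was at 3.36 ± 1.94 CPM in Cornish and 55.2 ± 21.8 CPM in White Plymouth Rock muscle (SD, n = 6 each). The Cornish libraries ran from 1.85 to 6.73 CPM with a median of 2.55, and the White Plymouth Rock libraries from 32.5 to 90.4 CPM with a median of 54.5. The groups did not overlap, and the log2 fold change of Cornish over White Plymouth Rock was -4.05 ± 0.75 (95% interval -5.63 to -2.47). This contrast chose the gene.

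Within the crossbred E17 group, CBLN1 was at 73.8, 1.75, 70.3, 10.3, 38.1 and 2.42 CPM in libraries 1 to 6. Libraries 1, 3 and 5 lay inside the White Plymouth Rock range. Library 6 lay inside the Cornish range, library 2 was just below it, and library 4 fell between both ranges. The highest crossbred library was 42.2-fold above the lowest, where the median of 10611 genes with a mean of at least 1 CPM was 1.37-fold. Within the parents the same ratio was 3.64-fold in Cornish and 2.78-fold in White Plymouth Rock. The purebred ranges do not overlap because of the choice of the gene, so the positions of the crossbred libraries are a description.

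The crossbred mean for CBLN1, 32.8 ± 33.2 CPM, was not called against either parent. Crossbred over Cornish gave 3.29 ± 0.73 (95% interval 1.76 to 4.83; adjusted p = 0.175) and crossbred over White Plymouth Rock -0.75 ± 0.66 (-2.13 to 0.62; adjusted p = 0.793). DESeq2 called the first (3.29, adjusted p = 0.00317), as did edgeR on all 72 libraries in 1 fit (3.29, adjusted p = 0.0111), while the 27 alternatives as a whole gave adjusted p-values from 0.00317 to 0.384. Both contrasts use the parental libraries on which the gene was chosen. Of the 4 genes, 0 were called for crossbred against Cornish at E17, where 0.0171% of 11717 genes were called, and 0 for crossbred against White Plymouth Rock, where 0.00853% were.

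**Figure D1:**
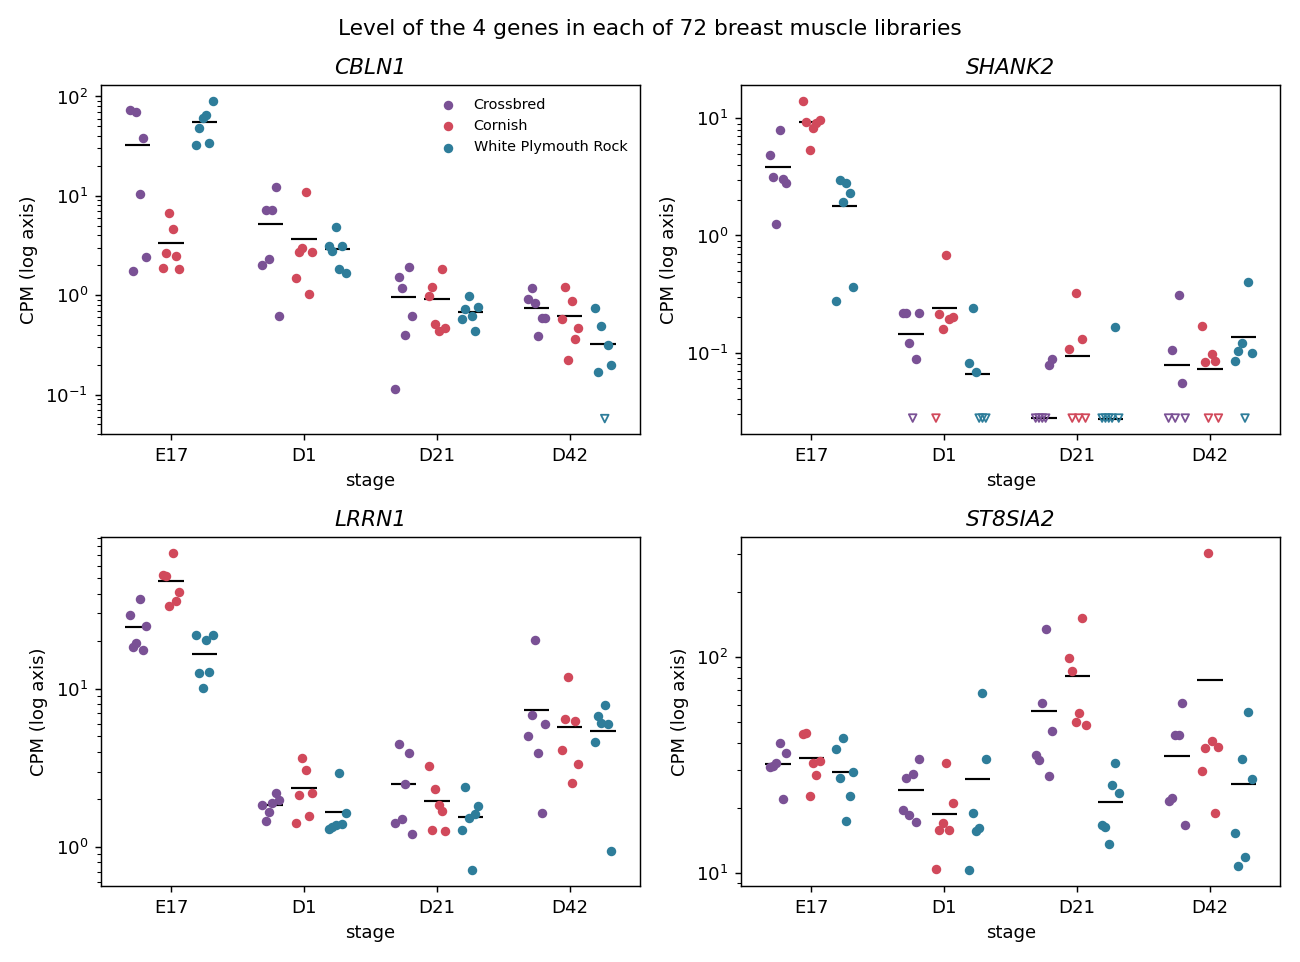
CPM (log axis) of each gene in every library by stage, with crossbred, Cornish and White Plymouth Rock libraries side by side; the black line is the mean of 6 libraries, and open triangles at the bottom mark libraries with a count of 0. At E17 the crossbred CBLN1 libraries spread from 1.75 to 73.8 CPM, and ST8SIA2 has 1 Cornish D42 library at 303.7 CPM.

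Skin epithelium markers were high in 2 White Plymouth Rock E17 libraries. Their 11 genes summed to 22.0 to 46.6 CPM in crossbred and 25.5 to 34.3 CPM in Cornish libraries, while White Plymouth Rock libraries 1 and 5 reached 171.7 and 446.7 CPM and the other 4 stayed between 22.2 and 24.2 CPM. Of the defining markers, EPCAM was at 0 in 3 crossbred, 2 Cornish and 2 White Plymouth Rock libraries. CBLN1 was at 32.5 and 34.2 CPM in those 2 White Plymouth Rock libraries and at 48.5 to 90.4 CPM in the other 4. Without them, an alternative chosen after seeing the data, Cornish over White Plymouth Rock was -4.30 for CBLN1, 2.205 for SHANK2 and 1.55 for LRRN1. Of the 11 skin markers 3 were lower in Cornish at E17, KRT14, KRT13 and EPCAM, where 2.07% of all genes were. Of 11 red blood cell markers 5 were higher in Cornish, where 1.65% of all genes were. The part of these markers in the differences was not tested.

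After hatch CBLN1 was low in every breed. The crossbred, Cornish and White Plymouth Rock means were 5.24 ± 4.37, 3.65 ± 3.68 and 2.91 ± 1.15 CPM at D1 and all stayed under 1 CPM at D21 and D42. The purebred ranges overlapped at each of these stages. CBLN1 stayed uneven within some groups after hatch. At D1 the highest library was 19.9-fold above the lowest in the crossbred, 10.8-fold in Cornish and 2.93-fold in White Plymouth Rock. The same ratio at D21 was 16.9-fold in the crossbred, at counts of 5 to 98, with 4.22-fold in Cornish and 2.29-fold in White Plymouth Rock. Cornish over White Plymouth Rock was 0.32 ± 0.60 at D1 (95% interval -0.94 to 1.58), 0.40 ± 0.51 at D21 (-0.66 to 1.47) and 0.94 ± 0.62 at D42 (-0.36 to 2.25), none of them called. White Plymouth Rock D42 library 4 had a count of 0, which allows up to 0.0646 CPM (3 counts; counting error only).

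Over the stages CBLN1 went down in the tests that did not use the purebred libraries of its choice. In the crossbred it fell by 2.63 on the log2 scale at D1 relative to E17 (SE 0.61, adjusted p = 0.000224). The uneven E17 libraries overlapped those of D1. CBLN1 was chosen with uneven crossbred levels known, so this step is not free of its choice. At D21 relative to D1 it fell in all 3 breeds, with -2.45 ± 0.63 in the crossbred (adjusted p = 0.000741), -2.01 ± 0.63 in Cornish (adjusted p = 0.00533) and -2.08 ± 0.64 in White Plymouth Rock (adjusted p = 0.00455). The Cornish call was lost without D1 library 4, the highest of its group (-1.27, adjusted p = 0.0773; left out after seeing the data). From E17 to D1 the Cornish value was 0.11 ± 0.58 and the White Plymouth Rock value -4.25 ± 0.65; both start from libraries that chose the gene. No breed had a call from D21 to D42.

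SHANK2 ran the other way between the purebreds at E17, at 9.30 ± 2.80 CPM in Cornish and 1.78 ± 1.18 CPM in White Plymouth Rock (SD, n = 6 each). Cornish libraries ran from 5.41 to 14.1 CPM with a median of 9.17, and White Plymouth Rock libraries from 0.279 to 2.95 CPM with a median of 2.13, so that the groups did not overlap. The log2 fold change, from the contrast that chose the gene, was 2.38 ± 0.50 (95% interval 1.33 to 3.43). White Plymouth Rock libraries 1 and 6, at 0.279 and 0.363 CPM, stood well below the other 4, which were at 1.94 CPM or more.

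The crossbred lay between the parents for SHANK2, at 3.86 ± 2.34 CPM with a range of 1.26 to 8.01. Of its 6 libraries, 1 fell inside the Cornish range, 2 inside the White Plymouth Rock range and 3 between them. Against Cornish the crossbred value was -1.26 ± 0.48 (95% interval -2.27 to -0.25; adjusted p = 0.392) and against White Plymouth Rock 1.12 ± 0.49 (0.09 to 2.14; adjusted p = 0.507). Neither was called, and both share the libraries that chose the gene.

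After hatch SHANK2 was close to the limit of detection. The highest count of any library was 39 at D1 and 22 at D21 or D42, and 12 of 18 libraries at D21 had a count of 0. A count of 0 for SHANK2 allows up to 0.0424 CPM in Cornish D1 library 1 and up to 0.0896 CPM in crossbred D42 library 3, the extremes of such libraries. At D1 relative to E17 SHANK2 fell by 4.77 in the crossbred (SE 0.90, 95% interval -6.58 to -2.97, adjusted p = 1.06e-05), where 25.5% of 11932 genes fell. Uneven crossbred levels were known when SHANK2 was chosen, so this step is not free of its choice. The Cornish and White Plymouth Rock values for that step, -5.27 ± 0.90 and -4.71 ± 0.92, share libraries with the choice of the gene. SHANK2 did not pass the low-count filter at D21 and D42, so breeds were compared at those stages for only 3 of the 4 genes, and at D1 its value of 1.83 ± 0.99 for Cornish over White Plymouth Rock (95% interval -0.24 to 3.91) was not called.

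LRRN1 was also higher in Cornish at E17. Of the 3 genes chosen at that stage, it had the smallest ratio of highest to lowest library in both purebreds. That ratio was 2.16-fold in Cornish and 2.15-fold in White Plymouth Rock. Cornish libraries ran from 33.6 to 72.7 CPM with a median of 46.1, and White Plymouth Rock libraries from 10.2 to 21.9 CPM with a median of 16.6, without overlap. The means were 47.8 ± 14.4 and 16.6 ± 5.32 CPM in Cornish and White Plymouth Rock (SD, n = 6 each), and the log2 fold change was 1.52 ± 0.24 (95% interval 1.02 to 2.01). The crossbred, at 24.5 ± 7.62 CPM with a range of 17.7 to 37.0, had 1 library inside the Cornish range, 3 inside the White Plymouth Rock range and 2 between.

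The crossbred LRRN1 value was -0.96 ± 0.23 against Cornish (95% interval -1.45 to -0.47; adjusted p = 0.238) and 0.56 ± 0.23 against White Plymouth Rock (0.07 to 1.05; adjusted p = 0.484). The first was called by DESeq2 (-0.96, adjusted p = 0.0145) and by edgeR only with the replicate number as a block (-0.97, adjusted p = 0.0253), with adjusted p-values from 0.0145 to 1 over 27 alternatives. The authors' deposited table lists the crossbred against Cornish at E17 for LRRN1 (unadjusted p = 5.52e-06), CBLN1 (5.87e-05) and SHANK2 (0.000161). For the crossbred against White Plymouth Rock the authors' deposited table lists LRRN1 (p = 0.0144) and SHANK2 (p = 0.0357), and it has only genes with a p of 0.05 or less. All of these crossbred values, the authors' included, use the parental libraries on which the genes were chosen.

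Against the mid-parent value, the mean of both parents on the log2 scale, the crossbred E17 level was 1.27 ± 0.56 for CBLN1, -0.07 ± 0.42 for SHANK2 and -0.20 for LRRN1. The CBLN1 value depends on that scale. Its parents were at 3.36 and 55.2 CPM, so their log2 mean lies well below the mean of their CPM. The crossbred mean was 32.8 CPM. The mid-parent value comes from the purebred libraries on which CBLN1, SHANK2 and LRRN1 were chosen. None of the 4 genes was called, where 0% of all genes were: edgeR called 0 of 11717, with 671 at an unadjusted p under 0.05, and DESeq2 called 2.

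**Figure D2:**
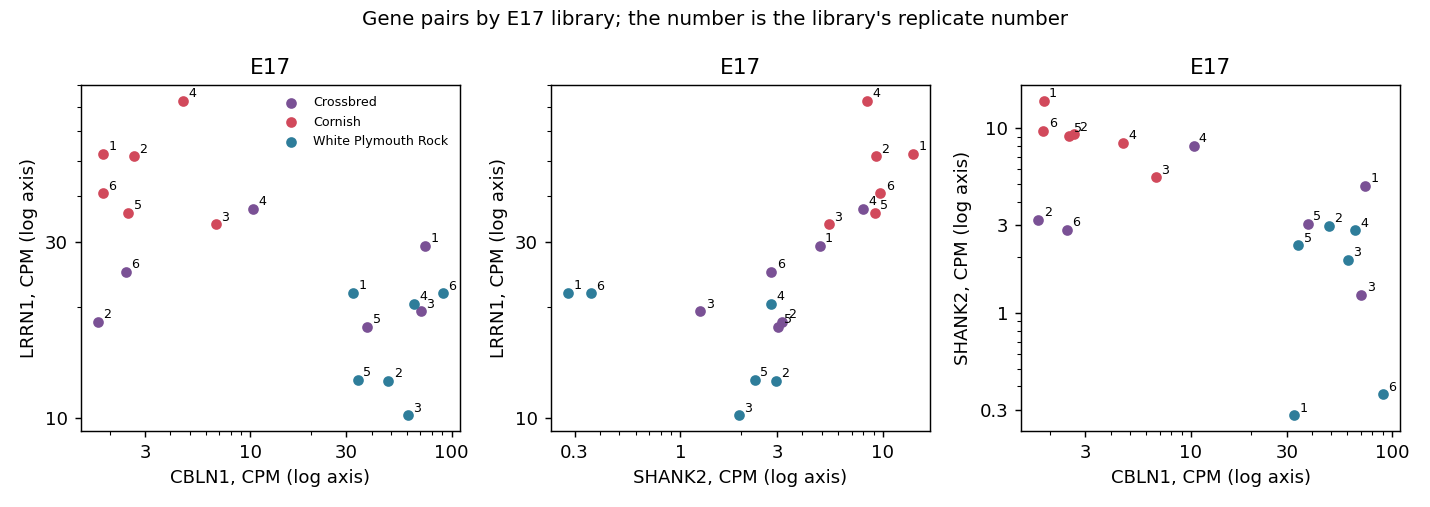
Each E17 library by its CPM of 2 genes on log axes, for CBLN1 and LRRN1, SHANK2 and LRRN1, and CBLN1 and SHANK2; colours mark crossbred, Cornish and White Plymouth Rock libraries and numbers their replicate number. Crossbred libraries 2 and 6 have CBLN1 at 1.75 and 2.42 CPM, near the Cornish libraries, while their LRRN1 (18.3 and 25.0 CPM) lies below every Cornish library.

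A crossbred library near one parent for CBLN1 was not always near that parent for the other genes. Libraries 2 and 6, low in CBLN1, had SHANK2 at 3.18 and 2.81 CPM and LRRN1 at 18.3 and 25.0 CPM, all below the lowest Cornish library. Library 3, high in CBLN1, lay inside the White Plymouth Rock range for all 3 genes. Library 4, with CBLN1 at 10.3 CPM, had the highest SHANK2 (8.01 CPM) and LRRN1 (37.0 CPM) of the group. Over the 18 E17 libraries, deviations from the group means correlated weakly between the 3 genes (Pearson r of -0.15 for CBLN1 and SHANK2, 0.0336 for CBLN1 and LRRN1, and -0.0881 for SHANK2 and LRRN1).

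LRRN1 followed a stage course with a low point in the first weeks and a higher level at D42. At D1 relative to E17 it fell by 3.73 in the crossbred (SE 0.41, adjusted p = 2.55e-11), where 25.5% of 11932 genes fell. Uneven crossbred levels were known when LRRN1 was chosen, so this step is not free of its choice. The Cornish and White Plymouth Rock values for that step were -4.35 ± 0.42 and -3.32 ± 0.41, from libraries that also chose the gene. Crossbred, Cornish and White Plymouth Rock means were 1.84, 2.35 and 1.66 CPM at D1 and 2.51, 1.95 and 1.56 CPM at D21, with no call between those stages. At D42 relative to D21 LRRN1 rose in all 3 breeds: by 1.53 ± 0.38 in the crossbred (adjusted p = 0.00944), by 1.56 ± 0.39 in Cornish (adjusted p = 0.00575) and by 1.79 ± 0.39 in White Plymouth Rock (adjusted p = 0.00192).

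The D42 level of LRRN1 was uneven within breeds. Crossbred libraries ran from 1.64 to 20.4 CPM, Cornish from 2.55 to 11.8 and White Plymouth Rock from 0.947 to 7.96, so that D42 and D21 overlapped in each breed. The highest crossbred and the highest Cornish value were both those of library 3. Without the D42 libraries numbered 3 and the shallow crossbred D1 library 1, the crossbred value was 0.91 and no longer called (adjusted p = 0.11). Leaving out crossbred D42 library 3 alone gave 0.91 as well (adjusted p = 0.148). It was also not called in a fit of only its 2 groups (1.55, adjusted p = 0.164). The Cornish value without those libraries was 1.25 (adjusted p = 0.0128) and the White Plymouth Rock value 1.76 (adjusted p = 0.000567). LRRN1 did not differ detectably between the purebreds after hatch: Cornish over White Plymouth Rock was 0.49 ± 0.27 at D1 (95% interval -0.07 to 1.05), 0.32 ± 0.36 at D21 (-0.43 to 1.07) and 0.09 ± 0.52 at D42 (-1.01 to 1.18).

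**Figure D3:**
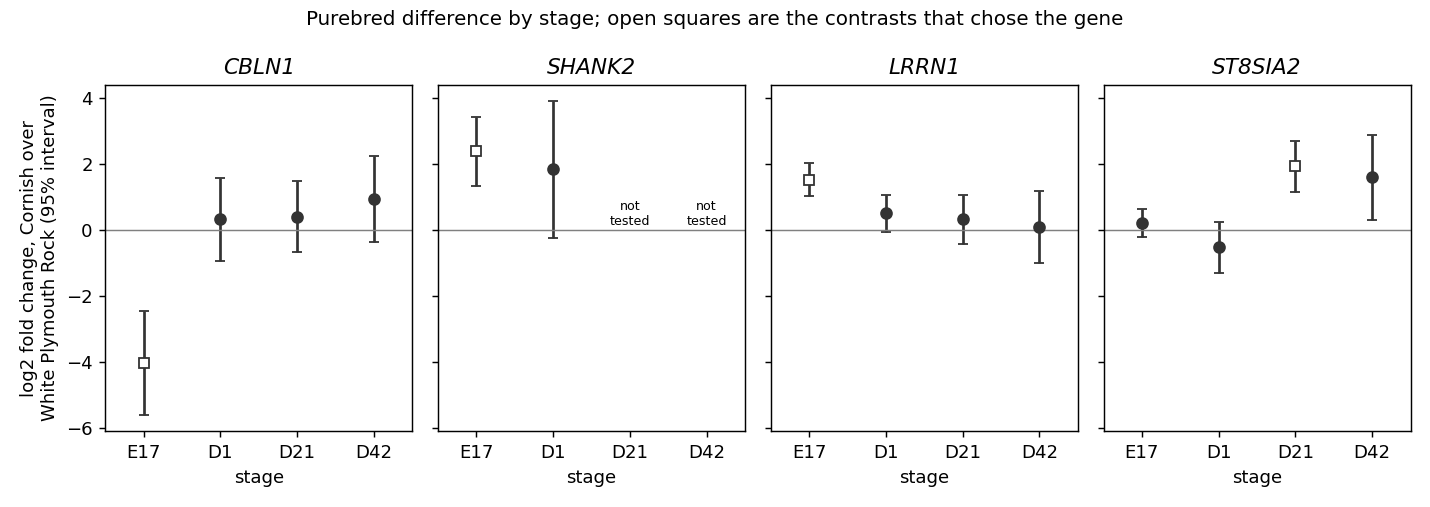
Log2 fold change of Cornish over White Plymouth Rock by stage for each gene, with 95% intervals; open squares are the contrasts on which the gene was chosen and filled circles the others. CBLN1 at E17 lies at -4.05, and the intervals at later stages include 0 for CBLN1 and LRRN1; SHANK2 was not tested at D21 and D42.

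ST8SIA2 had a different course, with overlapping levels in the 3 breeds at E17 and a wider spread over the breeds after hatch. Its biological coefficient of variation between libraries was 24.2% at E17, 44.5% at D1, 42.4% at D21 and 69.8% at D42. In White Plymouth Rock the highest library was 2.36-fold above the lowest at D21, against 2.44-fold at E17. At E17 ST8SIA2 was at 32.1 ± 6.04 CPM in crossbred, 34.2 ± 8.56 CPM in Cornish and 29.5 ± 9.23 CPM in White Plymouth Rock muscle (SD, n = 6 each). Cornish over White Plymouth Rock was 0.21 ± 0.20 (95% interval -0.21 to 0.62; adjusted p = 0.617), and crossbred over Cornish -0.08 ± 0.20 (-0.50 to 0.33; adjusted p = 0.912). Between the purebreds at E17, 3.72% of 11717 genes were called, which include the 3 genes chosen on that contrast and not ST8SIA2. At D1 Cornish over White Plymouth Rock was -0.53 ± 0.37 (-1.31 to 0.25; adjusted p = 0.732). White Plymouth Rock D1 library 5 was at 68.1 CPM, while the other 5 of its group lay between 10.3 and 33.9 CPM.

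At D21 ST8SIA2 was at 81.5 ± 39.9 CPM in Cornish and 21.4 ± 7.05 CPM in White Plymouth Rock (SD, n = 6 each). Cornish libraries ran from 48.4 to 151.1 CPM with a median of 70.5, and White Plymouth Rock libraries from 13.6 to 32.2 CPM with a median of 20.1. The ranges did not overlap, and the log2 fold change was 1.93 ± 0.37 (95% interval 1.16 to 2.70), from the contrast that chose the gene. At that stage 2.93% of 11513 genes were called between the purebreds, and CBLN1 and LRRN1 were not among them. Of 8 skin markers tested at D21, edgeR called 1, EPCAM, higher in Cornish (4.73 ± 1.23, adjusted p = 0.0439). It was at 1.22 CPM in Cornish and 0.042 CPM in White Plymouth Rock, and only 1 of the 8 had an unadjusted p under 0.05. The 11 skin markers together summed to 16.8 ± 3.51 CPM in Cornish and 19.4 ± 9.72 CPM in White Plymouth Rock. The part of these markers was not tested. Of the 20 muscle genes of innervation loss and regeneration, which summed to 3103 ± 1327 CPM in Cornish and 1840 ± 381 CPM in White Plymouth Rock, 0 of 19 tested were called by edgeR, 6 had an unadjusted p under 0.05 and DESeq2 called 2.

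Crossbred D21 libraries 1 to 6 had ST8SIA2 at 35.3, 33.4, 61.4, 134.9, 28.3 and 45.4 CPM. Libraries 3 and 4 lay inside the Cornish range, library 5 inside the White Plymouth Rock range and the other 3 between. Crossbred over Cornish was -0.52 ± 0.36 (95% interval -1.27 to 0.22; adjusted p = 0.655) and crossbred over White Plymouth Rock 1.41 ± 0.37 (0.64 to 2.17; adjusted p = 0.509), both sharing the libraries that chose the gene. Of the 3 genes tested, 0 were called for crossbred against Cornish, where 0.122% of all genes were, and 0 for crossbred against White Plymouth Rock, where 0% were (0 by edgeR, 539 at an unadjusted p under 0.05, 13 by DESeq2). The authors' deposited table lists ST8SIA2 for the crossbred against White Plymouth Rock at D21 (unadjusted p = 0.000463). Against the mid-parent value the crossbred was at 0.44 ± 0.30, with 0% of genes called (0 by edgeR, 389 at an unadjusted p under 0.05, 4 by DESeq2). That contrast also shares the libraries that chose ST8SIA2.

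At D42 ST8SIA2 was at 34.8 ± 17.4 CPM in crossbred, 78.3 ± 110.7 CPM in Cornish and 25.8 ± 17.2 CPM in White Plymouth Rock muscle. A single library, Cornish D42 library 3, was at 303.7 CPM, while the other 5 Cornish libraries lay between 19.0 and 41.0 CPM and overlapped both other breeds. Cornish over White Plymouth Rock was 1.59 ± 0.62 (95% interval 0.29 to 2.89; adjusted p = 0.484), and without that library 0.35 (adjusted p = 0.73). Of the 3 genes tested between the purebreds at D42, 0 were called, where 0.0347% of 11532 genes were.

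Between stages ST8SIA2 rose at D21 relative to D1 in the crossbred, by 1.22 ± 0.45 (adjusted p = 0.0172), but without crossbred D21 library 4 the value was 0.71 and not called (adjusted p = 0.175). The gene was chosen with uneven crossbred levels known, so the crossbred step is not free of the choice. The same step was 2.12 ± 0.46 in Cornish and -0.35 ± 0.44 in White Plymouth Rock, both ending at libraries that chose the gene. At D1 relative to E17 it was not called in any breed, with -0.40 ± 0.44 in the crossbred, -0.86 ± 0.44 in Cornish (adjusted p = 0.0899) and -0.12 ± 0.44 in White Plymouth Rock. From D21 to D42 the crossbred value was -0.70 ± 0.44 (adjusted p = 0.368), and the Cornish value was -0.06 ± 0.44 with all libraries and -1.27 without D42 library 3. The Cornish step starts from the D21 libraries on which the gene was chosen for being high, so it is a description.

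**Figure D4:**
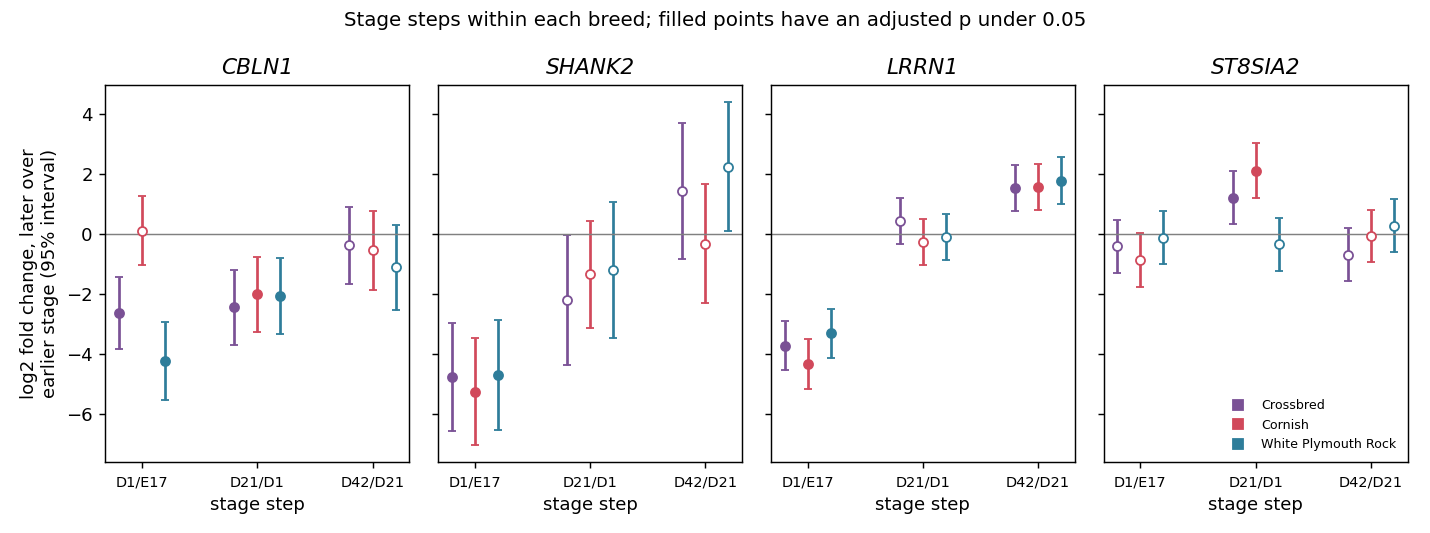
Log2 fold change of the later over the earlier stage within each breed, with 95% intervals; filled points have an adjusted p under 0.05, and points that start from or end at a group on which the gene was chosen are descriptions. LRRN1 lies at -3.73 in the crossbred for D1 over E17 and between 1.53 and 1.79 in the 3 breeds for D42 over D21.

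Counted over the 4 genes, 3 fell at D1 relative to E17 in the crossbred, where 25.5% of 11932 genes did. Uneven crossbred levels were known when the genes were chosen, so the crossbred counts are not free of the choice. In Cornish and White Plymouth Rock the counts were 2 and 3, where 28% and 25.2% of genes fell, from steps that share libraries with the choice of 3 of the genes. At D21 relative to D1, 2 of 4 genes were called in the crossbred, 2 in Cornish and 1 in White Plymouth Rock, where 56.3%, 55.3% and 53.6% of genes were called in those breeds; the Cornish count includes ST8SIA2, for which the D21 libraries were used in the choice. At D42 relative to D21, 1 of 4 rose in each breed, where 3.6%, 4.6% and 4.34% of genes rose in crossbred, Cornish and White Plymouth Rock. At D1 no breed contrast called any of the 4 genes. There 0% of 11566 genes were called for Cornish against White Plymouth Rock (1002 at an unadjusted p under 0.05, 78 by DESeq2), 0% for crossbred against Cornish (674 and 15) and 0% for crossbred against White Plymouth Rock (663 and 7). At D42 the crossbred contrasts called 0% of genes by edgeR as well, where 240 genes had an unadjusted p under 0.05 against Cornish and DESeq2 called 1, while the 2 counts against White Plymouth Rock were 580 and 16.

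Ordered by mean level over the 12 groups, CBLN1 was highest in White Plymouth Rock E17, then crossbred E17 and crossbred D1, and lowest in White Plymouth Rock D42. SHANK2 and LRRN1 shared the order Cornish, crossbred and White Plymouth Rock at E17 in their top 3 places. For LRRN1 the 3 D42 groups came next. ST8SIA2 was highest in Cornish D21 and lowest in Cornish D1. In each gene the range of every group overlapped that of the next group in the order. The biological coefficient of variation between libraries at E17 was 76.6% for CBLN1, 57.3% for SHANK2, 28% for LRRN1 and 24.2% for ST8SIA2, against a median of 13.5% over 11717 genes.

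Relatives and partners of the 4 genes were read beside them. edgeR called none of 18 other genes of the cerebellin, LRRN, ST8SIA and NCAM families and synaptic partner families between the purebreds at any stage. Of them 2, 2, 5 and 1 had an unadjusted p under 0.05 at E17, D1, D21 and D42. DESeq2 called 1 at D21 and 0 at the other stages. Of all genes edgeR called 3.72%, 0%, 2.93% and 0.0347%, and 2323, 1002, 2091 and 978 had an unadjusted p under 0.05. With such shares, no call among 18 genes does not show that these genes were alike in the breeds. CBLN2, the nearest relative of CBLN1, was at 4.37 ± 1.23 CPM in Cornish and 4.17 ± 1.54 CPM in White Plymouth Rock at E17 (0.05 ± 0.27, adjusted p = 0.942). Any other SHANK gene in the count table would be among the 18 and is not reported here.

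Of these 18 genes, 9 fell and 1 rose at D1 relative to E17 in the crossbred, where 25.5% of all genes fell and 28.2% rose. In Cornish 10 fell and 1 rose, where 28% and 29.5% of all genes did. The White Plymouth Rock counts were also 10 and 1, where 25.2% and 28.4% did. CBLN2 fell at D1 relative to E17 in the crossbred (-2.12 ± 0.90, adjusted p = 0.0422) and Cornish (-2.49 ± 0.91, adjusted p = 0.0166), with -1.93 ± 0.89 in White Plymouth Rock (adjusted p = 0.0614). LRRN3 fell in all 3 breeds, by 2.67 in the crossbred (adjusted p = 0.00122), and so did LRRN4, by 1.31 in the crossbred (adjusted p = 6e-07). LRRN2 rose in all 3 breeds, with 0.64 ± 0.10 in the crossbred (adjusted p = 2.06e-07), 0.57 ± 0.10 in Cornish (2.23e-06) and 0.60 ± 0.10 in the White Plymouth Rock libraries (7.36e-07).

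For ST8SIA2 the relevant partners are NCAM1 and the second polysialyltransferase, ST8SIA4. NCAM1 was at 149.9 ± 14.2 CPM in Cornish and 126.7 ± 18.3 CPM in White Plymouth Rock at D21 (0.24 ± 0.14, adjusted p = 0.377). At D21 relative to D1 NCAM1 fell in all 3 breeds, with -1.74 ± 0.20 in the crossbred (adjusted p = 3.03e-11), -1.498 ± 0.20 in Cornish (2.19e-09) and -2.07 ± 0.20 in the White Plymouth Rock libraries (2.03e-13). ST8SIA4 rose over that step by 1.41 ± 0.21, 1.30 ± 0.21 and 1.53 ± 0.21 in the crossbred, Cornish and White Plymouth Rock (adjusted p = 7.18e-08, 3.88e-07 and 1.13e-08).

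Wider gene lists are given without the 4 genes. Between the purebreds 3.72% of all genes were called at E17 and 2.93% at D21. No list was tested against these shares. Of 34 tested synaptic organisers and adhesion receptors 1 fell in Cornish at E17, CADM3, a synaptic adhesion molecule (-0.76 ± 0.18, adjusted p = 0.0273), with a median log2 fold change of -0.04 for the list and -0.00 for all genes. CADM3 was also lower in Cornish at D21 (-0.77 ± 0.17, adjusted p = 0.0203). Of 23 postsynaptic scaffold genes 1 rose and 1 fell at E17, DLGAP2 (0.57 ± 0.13, adjusted p = 0.024) and HOMER1 (-0.66 ± 0.13, adjusted p = 0.0108), both partners of SHANK proteins. Of 24 genes of the sialic acid pathway 1 fell at E17, NANS, which makes sialic acid itself (-0.98 ± 0.23, adjusted p = 0.0261). At D21 NANS (-0.86 ± 0.21, adjusted p = 0.0327) and ST3GAL1, a sialyltransferase (-0.66 ± 0.17, adjusted p = 0.0439), fell in Cornish, where ST8SIA2 was higher. Of 25 neuromuscular junction genes edgeR called 0 at any of the 4 stages, with 5, 1, 1 and 1 at an unadjusted p under 0.05 from E17 to D42, and DESeq2 called 1 at E17 and 0 later. edgeR called no gene of these 4 lists at D1 or D42. It called 0% and 0.0347% of all genes there, so this does not set the lists apart.

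Markers of nerve cells overlapped between the breeds at E17. There the 16 neuron markers summed to 98.7 ± 12.9 CPM in crossbred, 99.6 ± 9.08 CPM in Cornish and 107.7 ± 14.9 CPM in White Plymouth Rock muscle. In the same order of breeds the 14 Schwann cell markers summed to 783.5 ± 125.8, 780.8 ± 138.0 and 812.1 ± 52.0 CPM (SD, n = 6 each). edgeR called 0 genes of both lists between the purebreds at E17, where 3.72% of all genes were called. At an unadjusted p under 0.05 were 3 of 15 neuron and 0 of 14 Schwann cell markers, and 2323 of all 11717 genes. DESeq2 called 1 neuron marker. With these shares, the 0 calls do not show that the markers were alike in the breeds. At D21, where 2.93% of all genes were called, edgeR called 1, NGFR, the low-affinity nerve growth factor receptor (-1.06 ± 0.22, adjusted p = 0.0154). At D1 relative to E17 in the crossbred, 16 of 34 synaptic organisers fell and 2 rose (median -1.13), and 8 of 16 neuron markers fell and 3 rose (median -0.59), where 25.5% of all genes fell and the median of all genes was 0.01. The part of nerve cells in those changes was not tested.

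By the likeness of deviations from group means over 72 libraries, CBLN1 was closest to GTF2H5 (Pearson r of 0.506), LRRN1 to CLRN1 (0.538) and ST8SIA2 to TPM2 (0.626), followed by NR2E1 and PTDSS2 for CBLN1, COPS5 and ARPP21 for LRRN1, and NAA40 and B4GALT2 for ST8SIA2. TNNI1 (0.408) and MYL10 (0.401) were among the 3 closest to SHANK2. The SHANK2 counts of at most 39 per library after hatch limit these 2 values. By group means over the 12 groups, which share the course of development, the closest were RPL35 for CBLN1 (0.962), HPF1 and RTKN2 for SHANK2 (0.973 for RTKN2), ZFHX4 for LRRN1 (0.981) and SYN2 for ST8SIA2 (0.914). These are descriptions over the 10706 named genes that averaged 1 CPM or more.

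On GRCg7b, in the RefSeq gene table, CBLN1 spans 6684305 to 6687213 on chromosome 11, SHANK2 17479889 to 17823099 on chromosome 5, LRRN1 18458125 to 18479460 on chromosome 12 and ST8SIA2 14513606 to 14539806 on chromosome 10. CBLN1 overlaps LOC107054281 only from 6684305 to 6684324, LRRN1 lies inside LOC107054405 and 3 LOC genes lie inside SHANK2. Whether the counting used strand is not given in the sources used here, so reads of SHANK2 and LRRN1 and of these overlapping genes may not be separated. By these coordinates, the same holds for CBLN1 only in its short shared stretch. Of the nearest genes in the count table, ZNF423 and CNEP1R1 beside CBLN1 (0.16 and -0.11), CTTN and PPFIA1 beside SHANK2 (0.07 and -0.00) and CRBN and SUMF1 beside LRRN1 (0.22 and -0.06) were not called in Cornish over White Plymouth Rock at E17. Beside ST8SIA2 at D21, SLCO3A1 was at 0.52 ± 0.15 (adjusted p = 0.0617) and FAM174B at -0.10 ± 0.15 (adjusted p = 0.765).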

How the data were processed

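RNA of 72 breast muscle libraries was sequenced from TruSeq libraries, per the labels' protocols. Tools given in the submitters' processing notes, without roles, are HISAT2 2.2.1, cutadapt 4.4 and StringTie, with the build GRCg7b. Values of the deposited count table are whole numbers without normalisation and were treated as estimated counts, since 32.9% of those between 1 and 20 could be divided by 4, against 25% for an even spread. The authors' deposited tables of breed comparisons give log2 fold changes and p-values, per the file headers. Their fold changes are of the second-named breed over the first-named, so the sign was opposite to the first over the second here in 100% of shared genes.

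Counts were tested with edgeR 4.0.16 in R 4.3.3 (TMM, filterByExpr, quasi-likelihood test, Benjamini-Hochberg, threshold 0.05). Breeds were compared in the 18 libraries of a stage and stage steps in all 72 libraries. Total counts were 16673085 to 75670549; intervals of counts of 0 cover counting error only. DESeq2 1.42.0, other scalings, filters and sample sets were alternatives. Scripts were tested on simulated data. The 4 genes, the gene lists and the tests were chosen with earlier results of these data known. Named genes were the 4 genes, their families, the nearest 2 genes on each side, the 3 most alike by each measure, and up to 4 called genes per list; some of them are not reported here. Each list holds genes chosen by function or cell type; leukocyte, adipocyte, fibroblast, endothelial and innervation-loss lists were also read. Of all genes 3.72% were called between the purebreds at E17. These lists had 0 of 17, 0 of 10, 1 of 18 (FAP higher), 1 of 14 (CDH5 higher) and 0 of 20. At an unadjusted p under 0.05 were 1, 0, 5, 10 and 2 of their genes, and 2323 of all 11717. DESeq2 called 0, 0, 4, 3 and 0 of their genes.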

Additional observations from a re-analysis of the deposited data

Results flagged for a closer look

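Of the 48 sets of 6 libraries (4 genes in 12 groups), 10 had 1 library far from the other 5. Chance flags about 1 in 20 groups of normally distributed values; these are CPM without a log, and 5 of the 10 are SHANK2 groups near a count of 0, so the number is not read against that rate. ST8SIA2 reached 303.7 CPM in Cornish D42 library 3 and 134.9 CPM in crossbred D21 library 4. LRRN1 reached 20.4 CPM in crossbred D42 library 3 and 2.94 CPM in White Plymouth Rock D1 library 4. CBLN1 reached 10.98 CPM in Cornish D1 library 4, and the same library had the highest SHANK2 of its group, at 0.686 CPM. SHANK2 was also set apart at low counts, at 0.308 CPM in crossbred D42 library 4, 0.242 CPM in White Plymouth Rock D1 library 2, 0.165 CPM in White Plymouth Rock D21 library 5 and 0.405 CPM in White Plymouth Rock D42 library 5.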

How the results depend on the processing

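Of 1914 values of the 4 genes under alternatives, 1894 kept their side of the threshold, with 0 called values reversed in sign and 44 values of uncalled results opposite in sign. The cause of the crossings was not tested. DESeq2 called crossbred over Cornish at E17 for CBLN1 (3.29) and LRRN1 (-0.96), a contrast that uses parental libraries on which both genes were chosen. All 72 libraries in 1 fit called it for CBLN1 (3.29) and left SHANK2 in Cornish over White Plymouth Rock at E17 uncalled (2.39). A fit of only the 2 groups left LRRN1 in crossbred D42 over D21 uncalled (1.55) and called ST8SIA2 in Cornish D1 over E17 (-0.87). Without the D42 libraries numbered 3 and crossbred D1 library 1, the first was uncalled (0.91), the second called (-0.87), and ST8SIA2 in Cornish D42 over D21 called (-1.27), a step from the D21 libraries that chose the gene. No library left out alone changed a call in the breed contrasts (1008 values). The stage steps, without each crossbred library and each other library named as far from its group (30 libraries, an alternative added after seeing the data), gave 10 changed calls in 184 values. In the crossbred, LRRN1 D42 over D21 ran from 0.91 to 1.82, ST8SIA2 D21 over D1 from 0.71 to 1.33 and SHANK2 D21 over D1 from -2.91 to -1.98 (called without D1 library 4 or D21 library 5 or 6). Without Cornish D1 library 4, CBLN1 D21 over D1 was -1.27 and uncalled and ST8SIA2 D1 over E17 -1.09 and called; without Cornish D42 library 3, ST8SIA2 D42 over D21 was -1.27. In White Plymouth Rock, SHANK2 ran from -4.93 to -0.17 for D21 over D1 and from 1.54 to 5.96 for D42 over D21; both were called without D21 library 5, which leaves that group at 0 counts, so these fitted values depend on the prior count. The other Cornish and White Plymouth Rock libraries were not left out of the step fits.

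By the rule that every same-numbered pair correlates above 0.1, the replicate numbers do not pair the libraries: same-numbered libraries of different breeds had mean correlations of 0.00747, -0.0131, -0.00559 and 0.163 at E17, D1, D21 and D42. At D42 9 of 18 such pairs were over 0.1, and libraries numbered 3 were among the 7 least like their groups in all 3 breeds. With the number as a block, LRRN1 in crossbred over Cornish at E17 was called (-0.97), and genes called between the purebreds were 313 at E17 and 257 at D21, against 436 and 337 without it. For crossbred over Cornish the block gave 6 at E17 and 1 at D21, against 2 and 14.

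Counts of genes called ran from 46 (all 72 libraries in 1 fit) to 876 (DESeq2) for the purebreds at E17, from 165 to 740 at D21 (337 as reported), from 0 to 120 at D1 (0) and from 0 to 168 at D42 (4). Crossbred over Cornish ran from 0 to 50 at E17 (2) and from 0 to 126 at D21 (14), and crossbred over White Plymouth Rock from 0 to 84 at E17 (1). The contrasts with 0 genes as reported reached at most 24 under any alternative, except the purebreds at D1. For D42 over D21 the counts ran from 105 to 1006 in the crossbred (730), from 437 to 1528 in Cornish (1068) and from 680 to 1275 in White Plymouth Rock (986). Counts of at most 39 per library limit SHANK2 after hatch.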
